A study of Mus musculus with 15 samples.

Results

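The 10 genes described here encode the kinases and adaptors that act directly under the B-cell receptor and its precursor form, the pre-B-cell receptor. They are the SRC-family kinases Lyn, Fyn, Lck and Blk, the SYK-family kinases Syk and Zap70, the TEC-family kinase Btk, the adaptor Blnk, the phospholipase Plcg2 and the PI3K delta catalytic subunit Pik3cd. The genes were taken by name, by a rule that uses no measured value, although with earlier results of these data known, and all 10 were found among the 11551 genes listed in any of the 4 deposited tables. Each table lists only genes that the authors called in its comparison, so every share of all genes given here is a share of this selected set. The p-values were adjusted over the same set, so adjusted p-values may be too small. Across 5 groups of cells, Lck, Blk, Plcg2, Zap70 and Pik3cd differed most, and Lyn hardly at all. In the libraries labelled shBCLAF1, Syk and Lck were lower and Blk, Btk, Plcg2 and Pik3cd were higher in both lines examined. The Pik3cd call in Art cells was lost after median centring and in some fits that left out a library. The calls of Plcg2 and Syk in Rag cells were also lost in some fits that left out a library. The fall of Lck differed in size between the lines.

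The study sequenced RNA, with paired-end reads, from mouse Abelson pre-B cells, which are B-cell precursors transformed by the viral kinase v-Abl. There are 15 libraries, 3 in each of 5 groups. Every culture received imatinib, an inhibitor of ABL kinases, for 48 h, and the labels put all cells at passage 10 to 15. Art_shBCLAF1 and Art are Artemis-deficient (Art -/-) cells, the first labelled with a short hairpin RNA against BCLAF1 and the second with no hairpin named. Rag_SPIC_tet_DOX_shBCLAF1, Rag_SPIC_tet_DOX and Rag_SPIC_tet_NoDOX are RAG-deficient (Rag -/-) cells whose name gives a tetracycline-controlled construct of SPIC, an ETS-family transcription factor. The labels give the first of these doxycycline (DOX) and the hairpin, and the second doxycycline with no hairpin named. Rag_SPIC_tet_NoDOX had no doxycycline, and its label names no hairpin. The Art labels name no SPIC construct and no doxycycline. The series concerns how DNA breaks made by the RAG recombinase bear on the ETS factor PU.1 in early B cells, by way of SPIC and BCLAF1. No label names a control hairpin, a clone or separate cultures, and the spread between samples on which the p-values rest may be technical. The 2 lines differ in genotype and construct together, and these cannot be told apart.

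In B cells, SRC-family kinases, chiefly Lyn, Fyn and Blk, phosphorylate the signalling tails of the receptor chains CD79A and CD79B. Syk docks on these tails, is activated there and phosphorylates the adaptor Blnk, which brings Btk to its substrate Plcg2, while PI3K delta makes the membrane lipid that Btk binds. Lck and Zap70 hold the matching places under the T-cell receptor. In mice, pre-B cells need Syk and Blnk to pass the pre-B-cell receptor stage.

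The expression values are log2 CPM, the log2 of read counts scaled to library size by the authors. Effective library sizes were 5.81 M reads in Art replicate 3 and 17.2 to 27.1 M in the other 14 libraries. Art replicate 3 had 145 genes at 0 reads, against 19 to 56 in the others, and stood 0.94 and 0.95 log2 units (root mean square over all genes) from the other Art libraries. The Rag_SPIC_tet_DOX libraries stood 0.41 to 0.83 from each other, and all other pairs within a group 0.24 to 0.36. Bclaf1 mRNA, which the hairpin is directed at, was at 8.32 ± 0.03 log2 CPM in Art_shBCLAF1 (SD, n = 3) against 7.32 ± 0.79 in Art, and at 8.04 ± 0.06 in Rag_SPIC_tet_DOX_shBCLAF1 against 7.73 ± 0.04 in Rag_SPIC_tet_DOX. Bclaf1 was thus higher under the shBCLAF1 label, and directions are given for the label as it stands. Spic was at 7.46 ± 0.04 log2 CPM in Rag_SPIC_tet_DOX_shBCLAF1, 4.21 ± 0.44 in Rag_SPIC_tet_DOX and 0.82 ± 0.62 in Rag_SPIC_tet_NoDOX, and at 4.54 ± 0.24 in Art_shBCLAF1 and 0.44 ± 0.36 in Art. Of 14 pre-B-cell markers 13 were among the genes listed, summing to 6045 to 13433 CPM. The largest sum of any other marker list was 928 CPM, for 6 of 12 myeloid markers in Art replicate 2. An unlisted marker may have been measured but not called by the authors, so each sum covers listed genes only.

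ETS factors of the PU.1, SPIB and SPIC kind bind purine-rich DNA around GGAA, and promoters of several members are therefore shown. RefSeq (GRCm38.p6, not the mm9 build named in the submitters' processing notes) gave 14 promoters for 8 members, each from 250 bases before to 50 bases after a transcription start. Blk and Lyn were not matched. Each promoter was searched on both strands for GAGGAA and for GGAAGT, which overlap where both occur as GAGGAAGT, and capitals mark the matches (TTCCTC and ACTTCC on the opposite strand). The set shown holds Lck, which had the widest range of the 10 genes, Syk and Blnk, which were lower under the shBCLAF1 label in Art cells, and Btk and Plcg2, which were higher.
Lck upstream start, chr4:129573592-129573891, minus strand: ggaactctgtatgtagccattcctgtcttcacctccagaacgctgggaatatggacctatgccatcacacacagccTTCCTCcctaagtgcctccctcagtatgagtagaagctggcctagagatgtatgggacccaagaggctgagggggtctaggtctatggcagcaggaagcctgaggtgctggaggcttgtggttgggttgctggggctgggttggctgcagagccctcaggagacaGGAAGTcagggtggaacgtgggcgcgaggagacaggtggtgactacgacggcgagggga
Lck downstream start, chr4:129558323-129558622, minus strand: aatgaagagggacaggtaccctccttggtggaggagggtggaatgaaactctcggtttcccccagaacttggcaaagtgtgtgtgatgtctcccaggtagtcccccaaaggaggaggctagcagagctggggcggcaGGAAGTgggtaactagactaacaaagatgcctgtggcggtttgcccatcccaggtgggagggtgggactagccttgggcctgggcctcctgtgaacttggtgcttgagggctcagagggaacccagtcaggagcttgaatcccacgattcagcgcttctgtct
Syk downstream start, chr13:52596632-52596931, plus strand: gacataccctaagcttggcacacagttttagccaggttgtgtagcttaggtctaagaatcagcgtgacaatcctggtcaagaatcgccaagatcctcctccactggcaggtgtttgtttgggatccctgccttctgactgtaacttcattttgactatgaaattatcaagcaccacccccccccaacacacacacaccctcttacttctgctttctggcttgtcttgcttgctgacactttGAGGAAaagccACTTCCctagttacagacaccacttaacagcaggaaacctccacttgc
Blnk, chr19:40994172-40994471, minus strand: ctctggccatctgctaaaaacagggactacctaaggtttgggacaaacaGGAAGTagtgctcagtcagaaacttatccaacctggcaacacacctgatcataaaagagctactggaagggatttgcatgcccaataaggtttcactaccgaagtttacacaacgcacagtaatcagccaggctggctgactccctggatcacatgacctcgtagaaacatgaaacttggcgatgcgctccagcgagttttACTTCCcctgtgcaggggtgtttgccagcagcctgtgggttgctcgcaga
Btk, chrX:134583091-134583390, minus strand: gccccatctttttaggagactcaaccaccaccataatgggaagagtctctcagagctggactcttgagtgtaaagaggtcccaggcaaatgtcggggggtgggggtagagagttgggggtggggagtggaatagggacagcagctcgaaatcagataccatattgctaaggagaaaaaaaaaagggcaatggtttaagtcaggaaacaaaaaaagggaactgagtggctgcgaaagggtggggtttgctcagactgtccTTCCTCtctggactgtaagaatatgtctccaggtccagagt
Plcg2, chr8:117498025-117498324, plus strand: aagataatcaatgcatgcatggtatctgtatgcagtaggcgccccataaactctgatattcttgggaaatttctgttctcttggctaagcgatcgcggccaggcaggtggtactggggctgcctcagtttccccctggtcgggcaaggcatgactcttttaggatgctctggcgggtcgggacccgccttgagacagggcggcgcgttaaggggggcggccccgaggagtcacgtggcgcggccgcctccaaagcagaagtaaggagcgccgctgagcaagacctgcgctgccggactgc
At least 1 of the motifs was found in 8 of the members' 14 promoters, against 43.4% of all 32851 RefSeq mouse promoters of this length, with 28.3% holding GAGGAA and 23.8% GGAAGT. The Blnk promoter holds GGAAGT on both strands. The downstream Syk promoter holds GAGGAA and GGAAGT beside the start, and the upstream Lck promoter holds both motifs, whereas the Plcg2 promoter and the upstream Syk promoter, not shown, hold neither. A match is a description of the letters and not evidence of binding, and no match says only that these letters are not in this window.

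Levels were compared between genes per kilobase of merged exons in GENCODE M21. Averaged over the 15 libraries, Pik3cd was at 7.43 log2 CPM per kb and Blnk at 6.98. Fyn followed at 6.29, Syk at 6.21 and Plcg2 at 6.14, then Btk at 5.30, Lyn at 5.01 and Blk at 4.71. The T-cell kinase genes were lowest, with Lck at 3.08 and Zap70 at 1.51. Across the 5 group means, Lck ranged over 3.86 log2 units, Blk over 2.68, Zap70 over 1.79, Plcg2 over 1.64 and Pik3cd over 1.30. Blnk ranged over 1.0, Btk over 0.97, Syk over 0.72, Fyn over 0.38 and Lyn over 0.15. The range of Zap70 has Art at its top (3.83 ± 0.78 log2 CPM). That mean is raised by the shallow Art replicate 3, at 4.71 against 3.27 and 3.50 in replicates 1 and 2. Of all 11551 genes 96.9% had a narrower range than Lck, and 0.563% had a narrower range than Lyn.

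**Figure D1:**
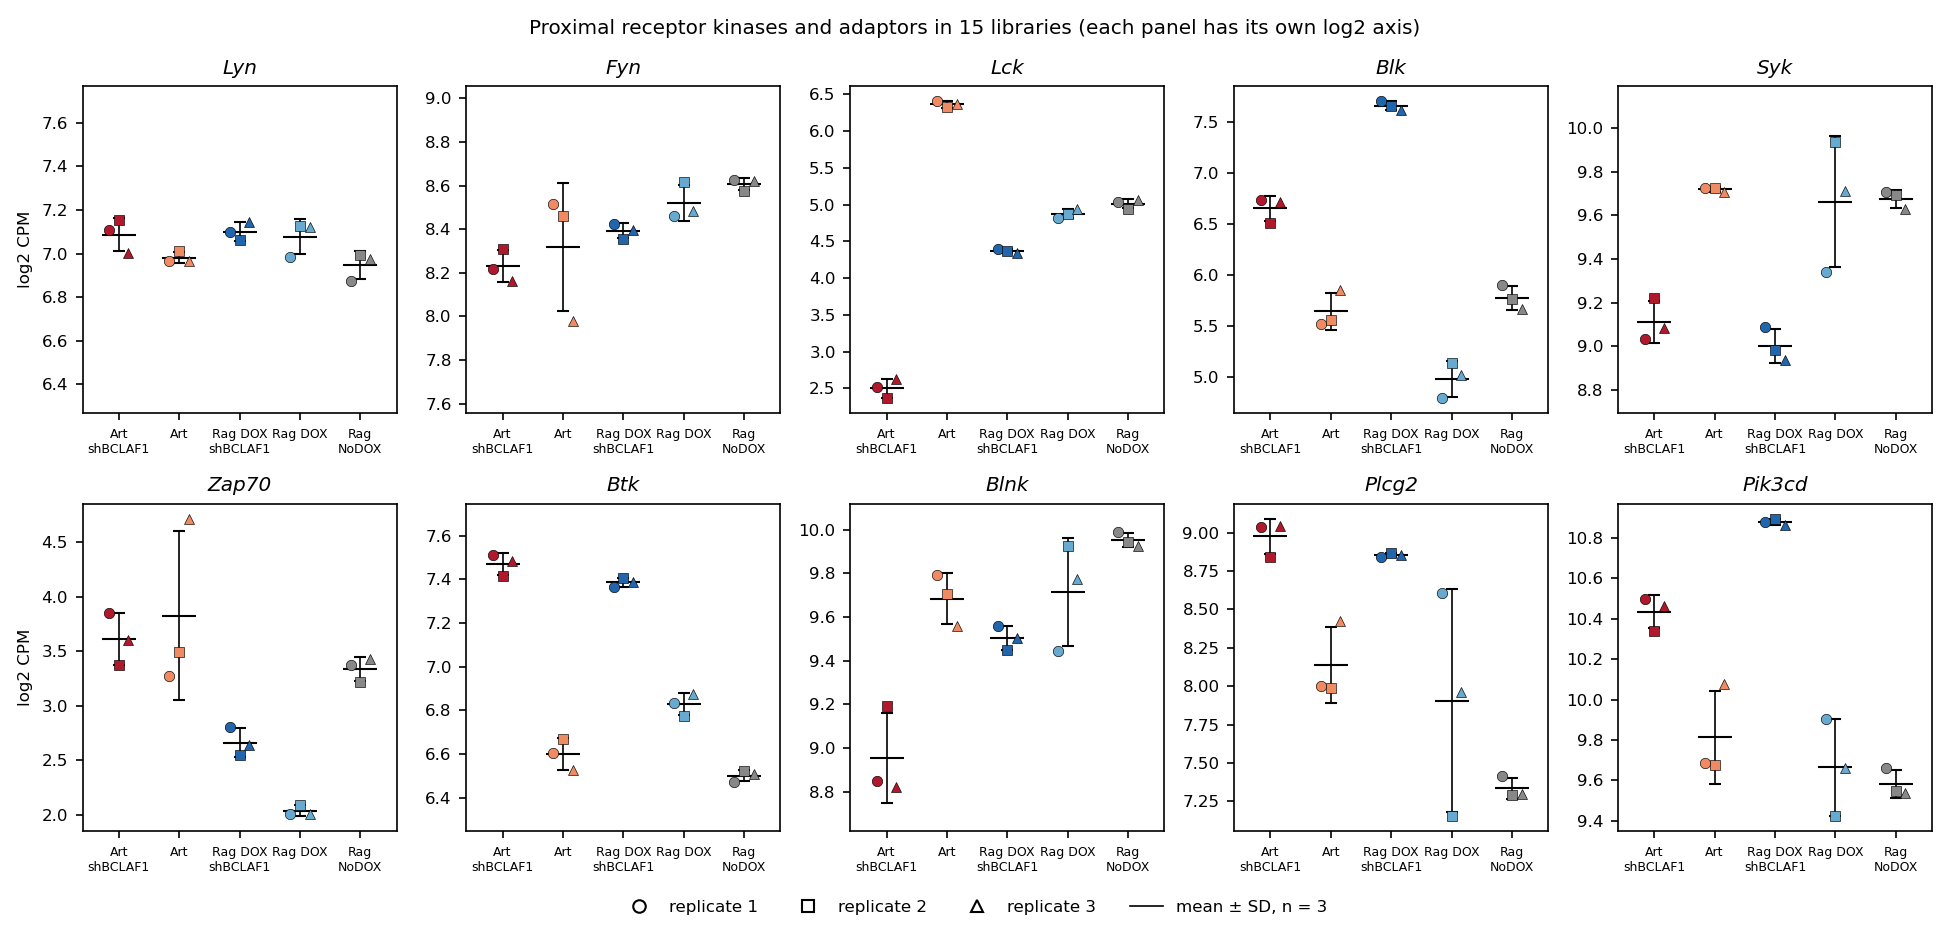
Level of each of the 10 genes in each of 15 libraries, in log2 CPM, with the 5 groups along the horizontal axis, a symbol for each replicate, and black bars for the mean ± SD of 3 libraries. Lck lies near 2.5 in Art_shBCLAF1 and near 6.4 in Art, Lyn is nearly level, and the Rag_SPIC_tet_DOX libraries are spread for Plcg2, Syk and Blnk.

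Among the SRC-family genes, Lyn (chr4:3678115-3813122, GRCm38) encodes a kinase that both starts and restrains B-cell receptor signals. Lyn was at 7.11, 7.15 and 7.0 log2 CPM in Art_shBCLAF1 against 6.97, 7.01 and 6.97 in Art, and at 7.10, 7.06 and 7.14 in Rag_SPIC_tet_DOX_shBCLAF1. It was at 6.98, 7.13 and 7.12 in Rag_SPIC_tet_DOX against 6.87, 6.99 and 6.98 in Rag_SPIC_tet_NoDOX. In the order of group means, every group overlapped its neighbour. A lincRNA on the opposite strand, Gm26857, shares 6.09% of the exon bases of Lyn, and the sources used here do not say whether reads were counted by strand. Fyn (chr10:39368855-39565381), which acts in B and T cells, was at 8.22, 8.31 and 8.16 in Art_shBCLAF1 against 8.52, 8.46 and 7.98 in Art, the last being the shallow library. Fyn was at 8.43, 8.36 and 8.40 in Rag_SPIC_tet_DOX_shBCLAF1, at 8.46, 8.62 and 8.49 in Rag_SPIC_tet_DOX and at 8.62, 8.57 and 8.62 in Rag_SPIC_tet_NoDOX. In the order of group means of Fyn, Rag_SPIC_tet_DOX_shBCLAF1 and Rag_SPIC_tet_DOX were the only neighbours that did not overlap.

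Lck (chr4:129548344-129573641) encodes the SRC-family kinase best known from T cells. Lck was at 2.52, 2.37 and 2.62 log2 CPM in Art_shBCLAF1 against 6.41, 6.32 and 6.36 in Art. These values rest on 96 to 132 reads per library in Art_shBCLAF1 and 478 to 2203 in Art. In Rag cells it was at 4.40, 4.37 and 4.34 in Rag_SPIC_tet_DOX_shBCLAF1, at 4.81, 4.87 and 4.94 in Rag_SPIC_tet_DOX and at 5.03, 4.95 and 5.07 in Rag_SPIC_tet_NoDOX. All 5 groups lay apart from their neighbours, with Art highest and Art_shBCLAF1 lowest, and the shallow Art library lay between the other Art libraries. Blk (chr14:63372836-63417037), the SRC-family kinase largely restricted to B cells, was at 6.74, 6.52 and 6.72 in Art_shBCLAF1 against 5.52, 5.56 and 5.86 in Art. It was at 7.71, 7.66 and 7.62 in Rag_SPIC_tet_DOX_shBCLAF1, at 4.79, 5.14 and 5.02 in Rag_SPIC_tet_DOX and at 5.90, 5.76 and 5.67 in Rag_SPIC_tet_NoDOX. Rag_SPIC_tet_DOX was thus lowest and Rag_SPIC_tet_DOX_shBCLAF1 highest, and in that order only Rag_SPIC_tet_NoDOX and Art overlapped.

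Syk (chr13:52583173-52648792), the kinase that starts the signal from the receptor tails, was at 9.04, 9.22 and 9.08 log2 CPM in Art_shBCLAF1 against 9.73, 9.72 and 9.71 in Art. It was at 9.09, 8.98 and 8.94 in Rag_SPIC_tet_DOX_shBCLAF1, at 9.34, 9.94 and 9.71 in Rag_SPIC_tet_DOX and at 9.71, 9.70 and 9.63 in Rag_SPIC_tet_NoDOX. The 6 libraries labelled shBCLAF1 all lay below the 9 others, and replicate 1 was the lowest of the Rag_SPIC_tet_DOX libraries. Zap70 (chr1:36761798-36782818), the T-cell relative of Syk, was at 3.85, 3.38 and 3.61 in Art_shBCLAF1 against 3.27, 3.50 and 4.71 in Art, the last again being the shallow library. Zap70 was at 2.81, 2.55 and 2.64 in Rag_SPIC_tet_DOX_shBCLAF1, at 2.01, 2.09 and 2.0 in Rag_SPIC_tet_DOX and at 3.38, 3.21 and 3.42 in Rag_SPIC_tet_NoDOX. Its 3 Rag groups lay apart, with Rag_SPIC_tet_DOX lowest, and each Zap70 value rests on at least 86 reads.

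The adaptor gene Blnk (chr19:40928927-40994535) was at 8.85, 9.19 and 8.82 log2 CPM in Art_shBCLAF1 against 9.79, 9.70 and 9.56 in Art. It was at 9.56, 9.45 and 9.51 in Rag_SPIC_tet_DOX_shBCLAF1, at 9.44, 9.93 and 9.77 in Rag_SPIC_tet_DOX and at 9.99, 9.95 and 9.92 in Rag_SPIC_tet_NoDOX. Art_shBCLAF1 was below every other group, and Rag_SPIC_tet_DOX overlapped both other Rag groups. Btk (chrX:134542336-134583570), the TEC-family kinase whose loss impairs B-cell development, was at 7.51, 7.42 and 7.48 in Art_shBCLAF1 against 6.61, 6.67 and 6.53 in Art. It was at 7.37, 7.41 and 7.39 in Rag_SPIC_tet_DOX_shBCLAF1, at 6.83, 6.77 and 6.88 in Rag_SPIC_tet_DOX and at 6.47, 6.52 and 6.51 in Rag_SPIC_tet_NoDOX. All 5 groups lay apart for Btk, with both groups labelled shBCLAF1 above the rest. Some gaps were narrow. The lowest Art value (6.53) lay just above the highest of Rag_SPIC_tet_NoDOX (6.52). The lowest Art_shBCLAF1 value (7.42) lay just above the highest of Rag_SPIC_tet_DOX_shBCLAF1 (7.41).

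Plcg2 (chr8:117498291-117635142), the phospholipase that turns the signal into calcium release and protein kinase C activity, was at 9.04, 8.84 and 9.05 log2 CPM in Art_shBCLAF1 against 8.0, 7.99 and 8.42 in Art. It was at 8.84, 8.87 and 8.86 in Rag_SPIC_tet_DOX_shBCLAF1, at 8.60, 7.15 and 7.96 in Rag_SPIC_tet_DOX and at 7.42, 7.29 and 7.30 in Rag_SPIC_tet_NoDOX. The Rag_SPIC_tet_DOX libraries thus ran from below Rag_SPIC_tet_NoDOX to near Rag_SPIC_tet_DOX_shBCLAF1. Pik3cd (chr4:149649168-149702571), the leukocyte catalytic subunit of PI3K, was at 10.50, 10.34 and 10.46 in Art_shBCLAF1 against 9.68, 9.68 and 10.08 in Art. It was at 10.88, 10.89 and 10.86 in Rag_SPIC_tet_DOX_shBCLAF1, at 9.91, 9.42 and 9.66 in Rag_SPIC_tet_DOX and at 9.66, 9.55 and 9.54 in Rag_SPIC_tet_NoDOX. Both groups labelled shBCLAF1 lay above the others, and the other 3 overlapped in order. For Fyn, Syk, Blnk, Plcg2 and Pik3cd, replicate 1 was the Rag_SPIC_tet_DOX library nearest to Rag_SPIC_tet_DOX_shBCLAF1 and replicate 2 the farthest. This pattern was picked out after the values were seen, and the other members did not share it. For Blk and Zap70 replicate 2 was nearest, and for Btk and Lyn replicate 3. For Lck replicate 1 was nearest and replicate 3 the farthest. Spic was at 3.72 log2 CPM in replicate 1, 4.59 in replicate 2 and 4.31 in replicate 3.

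Art_shBCLAF1 was set against Art, which asks what goes with the BCLAF1 hairpin label in Artemis-deficient cells. Lck fell, and so did Blnk and Syk, whereas Blk, Btk, Plcg2 and Pik3cd rose. Lck was 14.5-fold lower, at 5.69 ± 0.51 CPM in Art_shBCLAF1 against 82.5 ± 2.58 CPM in Art (log2 fold change -3.86, SE 0.13, n = 3 each, limma adjusted p = 5.08e-05). Blnk fell by 0.73 log2 units (SE 0.15, adjusted p = 0.00787) and Syk fell by 0.61 (SE 0.11, adjusted p = 0.00511). Blk rose by 1.01 (SE 0.14, adjusted p = 0.00195), Btk by 0.87 (SE 0.10, adjusted p = 0.00112), Plcg2 by 0.84 (SE 0.16, adjusted p = 0.00606) and Pik3cd by 0.62 (SE 0.15, adjusted p = 0.0164). Fyn (-0.09), Lyn (0.11) and Zap70 (-0.21) did not pass. In all, 4 members rose and 3 fell, and 7 of 10 did not overlap between groups, where 25% of all genes rose, 24.1% fell and 65.6% did not overlap. The 7 members called thus stand beside 49% of all genes called. The members' median log2 fold change was 0.01, against 0.05 for all genes tested.

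Centring each library on its median lowers every fold change in Art_shBCLAF1 against Art by 0.23, which left 3 members higher and 3 lower (Pik3cd at 0.39, adjusted p = 0.109) and put the split of all genes called at 2155 higher and 3599 lower, against 2884 higher and 2780 lower without centring. The Pik3cd call was also lost without Art_shBCLAF1 replicate 1 or 3 or Art replicate 1 or 2 (adjusted p = 0.0588 to 0.0723). Without the shallow Art replicate 3, 8 of 10 members passed, as 80.1% of all genes did, with Fyn joining at -0.26 (adjusted p = 0.00312), and Zap70 was at 0.23 instead of -0.21. The authors' deposited table lists Zap70 at -0.28 and Fyn at 0.29 as Art minus Art_shBCLAF1, that is, Zap70 as higher and Fyn as lower in Art_shBCLAF1. Pre-B-cell markers summed to 6045 to 6687 CPM in Art_shBCLAF1 against 12590.0 to 13433 CPM in Art. T-cell markers, of which 6 of 14 were among the genes used and Cd3e, Cd3d and Cd3g were not, summed to 132 to 140 CPM in Art_shBCLAF1 against 35.4 to 65.0 CPM in Art. The difference in that sum lies mostly in Cd2, at 6.89 log2 CPM in Art_shBCLAF1 against 3.09 in Art, and Cd5 and Cd28 were also higher. Cd247 was at -1.03 log2 CPM in Art_shBCLAF1 against 2.10 in Art, Lat at 2.68 against 4.71 and Gata3 at -0.33 against 1.13, so 3 of the 6 were higher and 3 lower. Myeloid markers, of which 6 of 12 were among the genes used, summed to 80.4 to 97.8 CPM in Art_shBCLAF1 against 696 to 928 CPM in Art. The part of these markers in the members' differences was not tested, and in bulk RNA fewer cells of a type and less RNA per cell cannot be told apart.

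Rag_SPIC_tet_DOX_shBCLAF1 against Rag_SPIC_tet_DOX asks the same of RAG-deficient cells in which SPIC is induced. Blk, Pik3cd, Plcg2, Zap70 and Btk rose, and Syk and Lck fell. Blk was 6.42-fold higher (log2 fold change 2.68, SE 0.10, n = 3 each, limma adjusted p = 6.17e-05). Pik3cd rose by 1.21 (SE 0.13, adjusted p = 0.000866), Plcg2 by 0.95 (SE 0.33, adjusted p = 0.0488), Zap70 by 0.63 (SE 0.12, adjusted p = 0.00695) and Btk by 0.56 (SE 0.05, adjusted p = 0.00066). Syk fell by 0.66 (SE 0.15, adjusted p = 0.0119) and Lck by 0.50 (SE 0.07, adjusted p = 0.00223). Blnk (-0.21, adjusted p = 0.208), Fyn (-0.13) and Lyn (0.02) did not pass. The authors' own fit of these 2 groups called 9 of the 10 members. As Rag_SPIC_tet_DOX minus Rag_SPIC_tet_DOX_shBCLAF1 it added Blnk (0.28) and Fyn (0.10), that is, both lower under the label. Here 5 members rose and 2 fell, and 8 did not overlap between groups, where 28.5% of all genes rose, 25.1% fell (53.6% in either direction) and 66.1% did not overlap. The members' median was 0.29, against 0.05 for all genes tested.

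The Plcg2 call depended on single libraries: its adjusted p was 0.114 to 0.118 without Rag_SPIC_tet_DOX_shBCLAF1 replicate 1, 2 or 3 or Rag_SPIC_tet_DOX replicate 3, and its log2 fold change was 1.30 without Rag_SPIC_tet_DOX replicate 1 and 0.57 without replicate 2. Syk stood at an adjusted p of 0.0501 without Rag_SPIC_tet_DOX_shBCLAF1 replicate 3, Zap70 at 0.096 in a fit over all 15 libraries, and Blnk passed at -0.35 (adjusted p = 0.00724) without Rag_SPIC_tet_DOX replicate 1. Centring lowers these fold changes by 0.10 and put the split of all genes called at 2629 higher and 3209 lower, against 3290 higher and 2896 lower without centring, with 5 members higher and 2 lower as before. Pre-B-cell markers summed to 7601 to 7897 CPM in Rag_SPIC_tet_DOX_shBCLAF1 against 8548, 12572 and 10600 CPM in Rag_SPIC_tet_DOX replicates 1, 2 and 3, and T-cell markers to 104 to 106 CPM against 115, 24.5 and 64.0 CPM. Myeloid markers summed to 58.8 to 64.1 CPM in Rag_SPIC_tet_DOX_shBCLAF1 against 220 to 311 CPM in Rag_SPIC_tet_DOX. Their part in these differences was not tested.

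**Figure D2:**
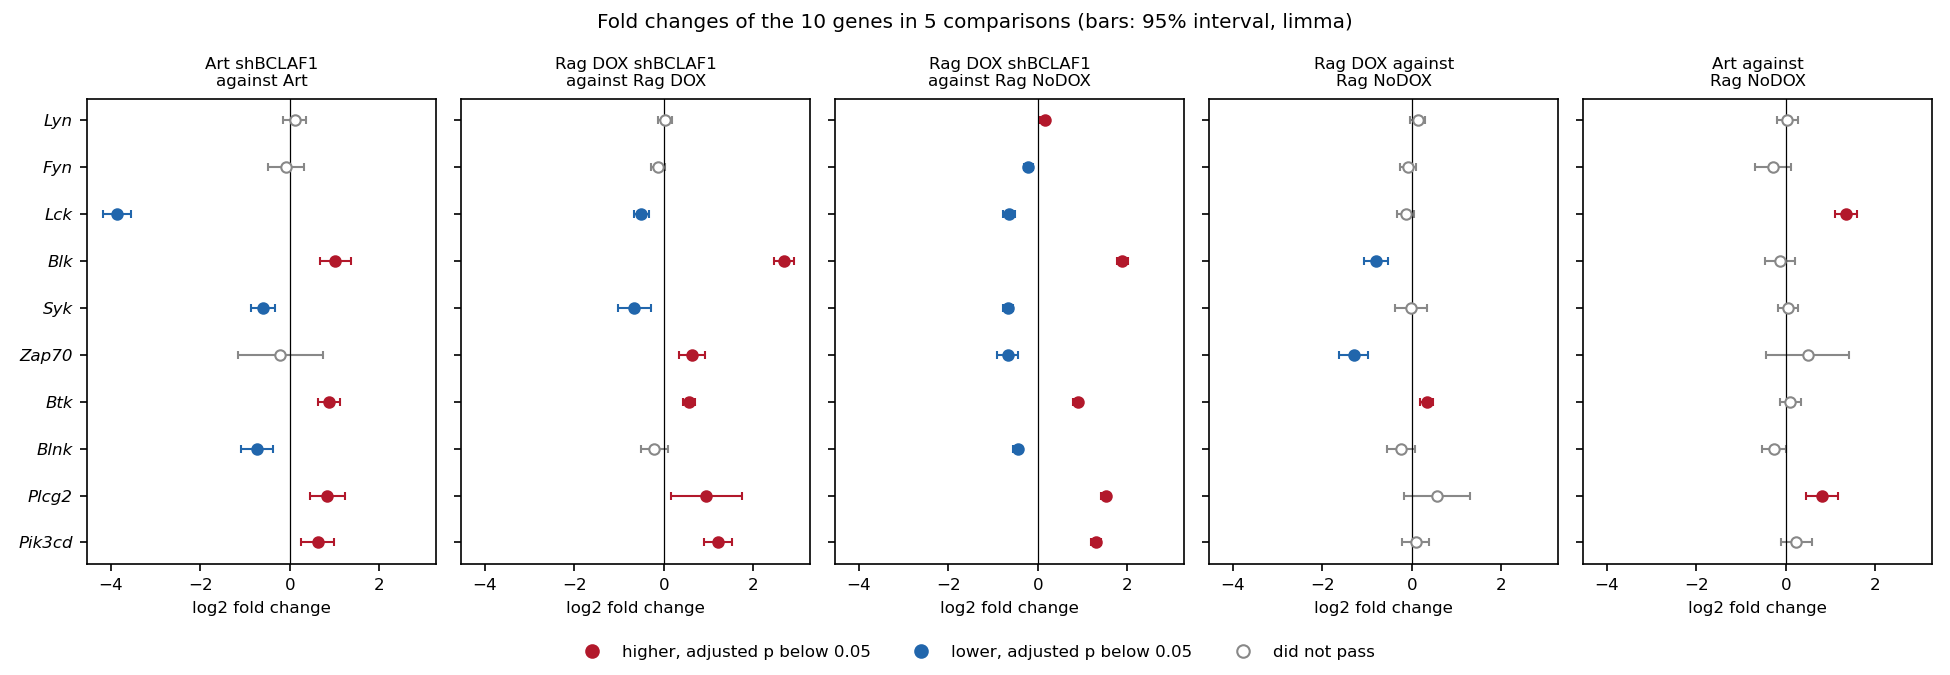
Log2 fold change of each of the 10 genes in 5 comparisons, with bars for the 95% interval from limma, filled red where higher and filled blue where lower at an adjusted p below 0.05, and open grey where the test was not passed. Blk, Btk, Plcg2 and Pik3cd are red and Lck and Syk blue in all 3 comparisons of libraries labelled shBCLAF1. The red of Pik3cd in Art_shBCLAF1 against Art is lost after median centring. In Rag_SPIC_tet_DOX_shBCLAF1 against Rag_SPIC_tet_DOX, the red of Plcg2 and the blue of Syk are lost in some fits that leave out a library.

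Rag_SPIC_tet_DOX_shBCLAF1 was also set against Rag_SPIC_tet_NoDOX, which adds doxycycline and the hairpin label together. All 10 members passed, where 79.7% of all genes did. Blk rose by 1.89 (SE 0.06), Plcg2 by 1.52 (SE 0.05), Pik3cd by 1.30 (SE 0.05), Btk by 0.89 (SE 0.04) and Lyn by 0.15 (SE 0.05), with limma adjusted p between 1.02e-14 and 0.00862. Zap70 fell by 0.68 (SE 0.11), Syk by 0.67 (SE 0.05), Lck by 0.64 (SE 0.07), Blnk by 0.45 (SE 0.05) and Fyn by 0.21 (SE 0.04), with adjusted p between 1.71e-09 and 0.000294. All 10 did not overlap between these groups, as 81.2% of all genes did not. The 5 higher and 5 lower members stand beside 41% of all genes higher and 38.7% lower. Centring lowers these fold changes by 0.15, which put Lyn at 0.00 and put the split of all genes called at 3822 higher and 5467 lower, against 4741 higher and 4465 lower without centring. In a fit over all 15 libraries Fyn, Lyn and Zap70 did not pass (adjusted p = 0.152, 0.104 and 0.0598), and without Rag_SPIC_tet_DOX_shBCLAF1 replicate 3 Lyn stood at 0.0505. Myeloid markers summed to 58.8 to 64.1 CPM in Rag_SPIC_tet_DOX_shBCLAF1 against 331 to 343 CPM in Rag_SPIC_tet_NoDOX, T-cell markers to 104 to 106 CPM against 34.7 to 36.5 CPM, and pre-B-cell markers to 7601 to 7897 CPM against 10259 to 10908 CPM. The difference in the T-cell sum lies mostly in Cd2, at 6.47 log2 CPM against 3.69. Cd5 (0.97 against 0.14) and Lat (3.49 against 3.35) were also higher. Cd247 (-0.49 against 2.67), Gata3 (-1.22 against 1.20) and Cd28 (0.92 against 1.34) were lower. The part of these markers in the members' differences was not tested. This comparison shares its libraries with those on either side of it, so its values are not separate evidence.

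The effect of the shBCLAF1 label in Art cells was compared with that in Rag_SPIC_tet_DOX cells by an interaction term over 12 libraries. The fall of Lck was larger in Art cells (-3.86, against -0.50 in Rag_SPIC_tet_DOX cells, difference -3.36 log2 units, SE 0.14, limma adjusted p = 6.92e-07). The rise of Blk was smaller in Art cells (1.01, against 2.68 in Rag_SPIC_tet_DOX cells, difference -1.67, SE 0.17, adjusted p = 0.000102), and so was that of Pik3cd (0.62, against 1.21, difference -0.59, SE 0.21, adjusted p = 0.0478). These 3 members, all lower, stand beside 31.3% of all genes called, 14.3% higher and 17% lower. The differences for Blnk (-0.52, adjusted p = 0.0735), Btk (0.31, adjusted p = 0.0558), Zap70 (-0.84, adjusted p = 0.166) and Plcg2 (-0.11) did not pass. For Syk the difference was 0.05 with a 95% interval of -0.37 to 0.48, for Fyn 0.04 (-0.37 to 0.45) and for Lyn 0.08 (-0.17 to 0.34). Without Art replicate 3, 5 members passed, beside 54.4% of all genes, with Blnk at -0.59 (adjusted p = 0.0261) and Btk at 0.27 (adjusted p = 0.00993) added. Without Rag_SPIC_tet_DOX replicate 2, 4 members passed, beside 35.3% of all genes, again with Blnk and Btk and without Pik3cd (adjusted p = 0.0792), and the Pik3cd call was also lost without any of Art_shBCLAF1 replicates 1 to 3, Rag_SPIC_tet_DOX_shBCLAF1 replicates 1 to 3 or Rag_SPIC_tet_DOX replicate 3 (adjusted p = 0.0767 to 0.1). Blnk alone joined without Art_shBCLAF1 replicate 2 (adjusted p = 0.0381).

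**Figure D3:**
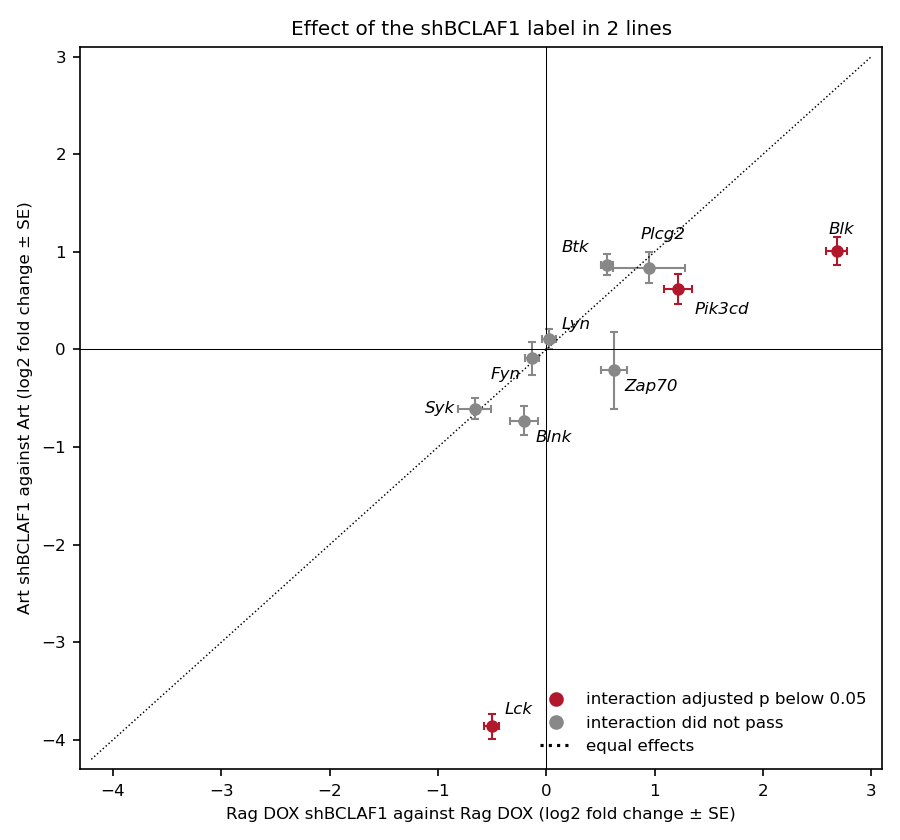
Log2 fold change ± SE of each of the 10 genes under the shBCLAF1 label in Art cells (vertical axis) against that in Rag_SPIC_tet_DOX cells (horizontal axis), with a dotted line for equal effects and red for genes whose interaction passed. Lck lies far below the line at -3.86 in Art cells, Blk and Pik3cd lie below it on the right, and Syk, Fyn and Lyn lie close to it.

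Doxycycline alone was examined in Rag_SPIC_tet_DOX against Rag_SPIC_tet_NoDOX, the comparison of induced SPIC with its uninduced state. Zap70 and Blk fell and Btk rose. Zap70 was 2.46-fold lower (log2 fold change -1.30, SE 0.14, n = 3 each, limma adjusted p = 0.00607), Blk fell by 0.79 (SE 0.11, adjusted p = 0.0113) and Btk rose by 0.33 (SE 0.06, adjusted p = 0.0244). Plcg2 (0.57, SE 0.32, adjusted p = 0.238), Blnk (-0.24, SE 0.13, adjusted p = 0.238), Lck (-0.14), Lyn (0.13), Fyn (-0.08), Pik3cd (0.08) and Syk (-0.01) did not pass. The 95% interval for Syk was -0.37 to 0.34. The authors' own fit of these 2 groups called 7 of the 10 members. As Rag_SPIC_tet_NoDOX minus Rag_SPIC_tet_DOX it added Plcg2 (-0.64), Lyn (-0.15), Fyn (0.12) and Blnk (0.17) to Zap70, Blk and Btk. With 1 member higher and 2 lower, the members stand beside 3.16% of all genes higher and 8.67% lower (11.8% called), and 4 members did not overlap between groups, as 40.7% of all genes did not. Blk lay below Rag_SPIC_tet_NoDOX here and above it in Rag_SPIC_tet_DOX_shBCLAF1, whereas Btk was higher in both. These comparisons share the Rag_SPIC_tet_NoDOX libraries.

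The calls depended on single libraries. Without Rag_SPIC_tet_DOX replicate 2, 5 members passed, beside 39.6% of all genes, Plcg2 at 0.95 (adjusted p = 0.00111) and Blnk at -0.35 (adjusted p = 0.0322) joining. Without Rag_SPIC_tet_DOX replicate 3 only Zap70 passed (adjusted p = 0.0493, beside 0.502% of all genes), and without Rag_SPIC_tet_NoDOX replicate 2 Zap70 and Blk passed (beside 3.47%). Without Rag_SPIC_tet_NoDOX replicate 1 or 3 no member did, with Zap70 at an adjusted p of 0.0702 and 0.0717, beside 0.104% and 0.13% of all genes. Centring left Btk at 0.28 (adjusted p = 0.0699).

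Art against Rag_SPIC_tet_NoDOX sets cells that can make but not repair RAG breaks against cells that cannot make them. Lck and Plcg2 rose, and no member fell. Lck was 2.55-fold higher (log2 fold change 1.35, SE 0.10, n = 3 each, limma adjusted p = 0.0103) and Plcg2 1.74-fold (0.80, SE 0.15, adjusted p = 0.0372). Blnk (-0.27, adjusted p = 0.222), Fyn (-0.29), Blk (-0.13), Zap70 (0.49), Pik3cd (0.23), Btk (0.10), Syk (0.04) and Lyn (0.03) did not pass. The 2 members higher stand beside 5.14% of all genes called, 2.58% higher and 2.56% lower, and 7 members did not overlap, where 37.9% of all genes did not. The 95% interval for Syk was -0.19 to 0.27. The authors' own fit of these 2 groups called 6 of the 10 members. As Rag_SPIC_tet_NoDOX minus Art it added Blk (0.18), Blnk (0.19), Fyn (0.13) and Btk (-0.13) to Lck and Plcg2. Myeloid markers summed to 916, 928 and 696 CPM in Art replicates 1, 2 and 3 against 331 to 343 CPM in Rag_SPIC_tet_NoDOX, and T-cell markers to 36.4, 35.4 and 65.0 CPM against 34.7 to 36.5 CPM, and their part was not tested.

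Without Art replicate 3, 4 members passed, with Lck at 1.35 (adjusted p = 3.59e-11), Plcg2 at 0.66 (3.1e-08), Blk at -0.24 (0.0133) and Blnk at -0.21 (0.0135), beside 47.4% of all genes. With it, leaving out Art replicate 1 or 2 or Rag_SPIC_tet_NoDOX replicate 1, 2 or 3 left no member and at most 1 gene past the threshold (0.00866% of all genes), with Lck at an adjusted p of 0.06 to 0.116. Centring put Plcg2 at an adjusted p of 0.0512.

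Some of these genes have a close relative that does the matching task in T cells, and the ratio within a library does not depend on library scaling. The pairs were picked after the values were seen, so the ratios are a description with no test. Plcg2 per kb was 6.90-fold Plcg1 in Art_shBCLAF1 (mean log2 ratio 2.79 ± 0.20, SD, n = 3) against 1.07-fold in Art (0.10 ± 0.34). It was 4.61-fold in Rag_SPIC_tet_DOX_shBCLAF1 (2.20 ± 0.08), 1.43-fold in Rag_SPIC_tet_DOX (0.52 ± 0.88) and 0.84-fold in Rag_SPIC_tet_NoDOX (-0.25 ± 0.0026). Plcg1 itself was at 7.06 ± 0.09 log2 CPM in Art_shBCLAF1 against 8.90 ± 0.09 in Art, and at 7.52 ± 0.07 in Rag_SPIC_tet_DOX_shBCLAF1 against 8.26 ± 0.16 in Rag_SPIC_tet_DOX. By library, the ratio was 0.94, 0.94 and 1.41 in Art replicates 1, 2 and 3, the last being the shallow library. It was 2.63, 0.77 and 1.44 in Rag_SPIC_tet_DOX replicates 1, 2 and 3. Plcg2 was thus well above Plcg1 in all 6 libraries labelled shBCLAF1 and below it in every Rag_SPIC_tet_NoDOX library. In Art and Rag_SPIC_tet_DOX the more abundant mRNA differed between libraries.

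Blk per kb was 19.3-fold Lck in Art_shBCLAF1 (mean log2 ratio 4.27 ± 0.06) against 0.659-fold in Art (-0.60 ± 0.20). In Rag cells it was 10.7-fold in Rag_SPIC_tet_DOX_shBCLAF1 (3.41 ± 0.01), 1.17-fold in Rag_SPIC_tet_DOX (0.23 ± 0.15) and 1.84-fold in Rag_SPIC_tet_NoDOX (0.88 ± 0.14). Art was the only group in which Lck exceeded Blk in all 3 libraries. Syk per kb exceeded Zap70 in every library, by 14.5-fold in Art_shBCLAF1 against 19.0-fold in Art, and by 25.9-fold in Rag_SPIC_tet_DOX_shBCLAF1, 63.1-fold in Rag_SPIC_tet_DOX and 25.9-fold in Rag_SPIC_tet_NoDOX. The Art libraries were at 28.1-fold, 24.0-fold and 10.2-fold in replicates 1, 2 and 3, the last being the shallow library. Blnk exceeded Lcp2, the T-cell and myeloid adaptor SLP-76, by 49.0-fold in Art_shBCLAF1 against 35.9-fold in Art, and by 93.6-fold in Rag_SPIC_tet_DOX_shBCLAF1, 63.5-fold in Rag_SPIC_tet_DOX and 104.9-fold in Rag_SPIC_tet_NoDOX. The Rag_SPIC_tet_DOX libraries were far apart in this ratio, at 30.7-fold, 161-fold and 51.9-fold in replicates 1, 2 and 3.

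**Figure D4:**
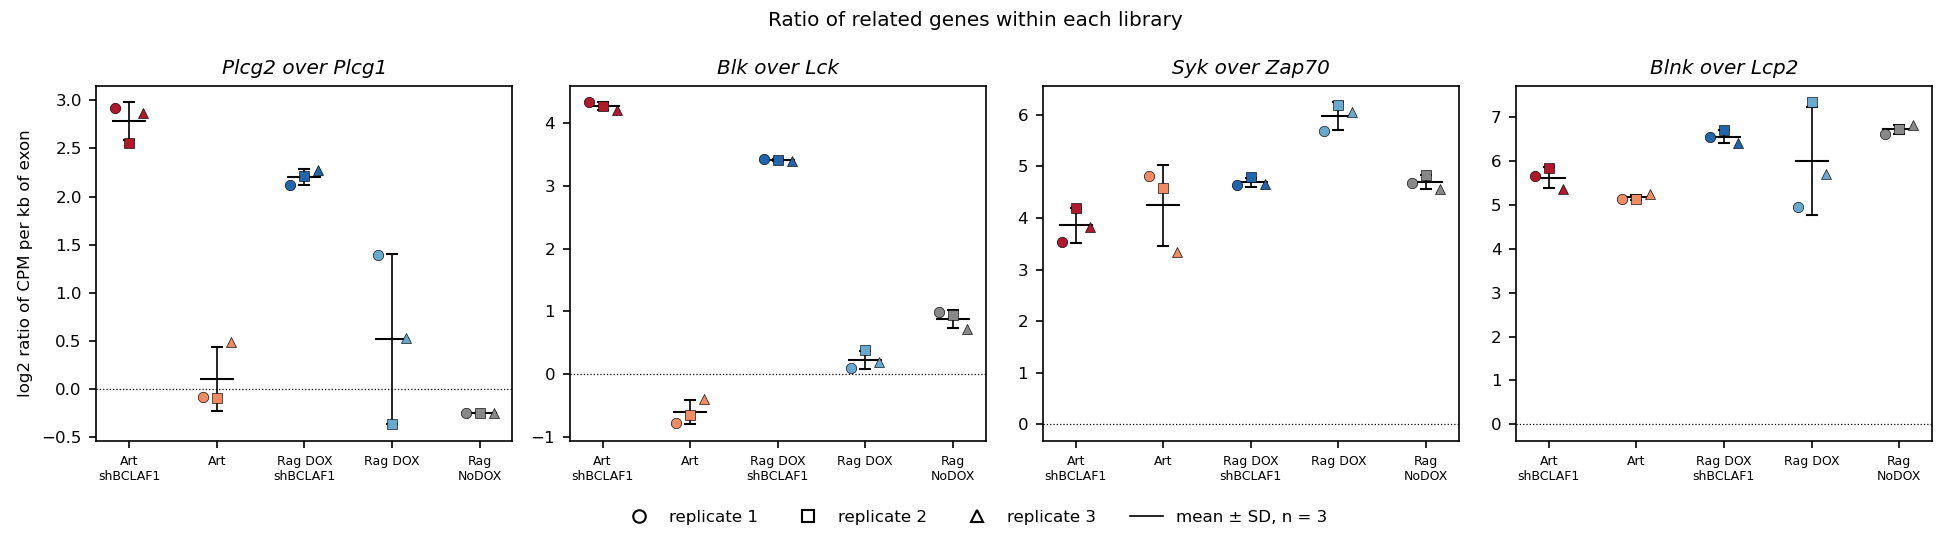
Log2 ratio of CPM per kb of exon between a member and a related gene in each of 15 libraries, by group, with black bars for the mean ± SD of 3 libraries and a dotted line for equal levels. Plcg2 over Plcg1 is 2.79 in Art_shBCLAF1 and 0.10 in Art, Blk over Lck is 4.27 in Art_shBCLAF1 and -0.60 in Art, and Syk over Zap70 and Blnk over Lcp2 stay above 0 throughout.

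Other genes of the pathway were counted from 6 lists of general knowledge. Of these, 12 of 13, 7 of 13, 24 of 25, 16 of 20, 26 of 27 and 28 of 29 genes were among those the authors listed. Counts are given under the shBCLAF1 label in Art cells and then in Rag_SPIC_tet_DOX cells. Of each list the changed genes with the largest rises and falls are named. Of 12 receptor chains and coreceptors, 1 rose and 8 fell in Art_shBCLAF1 against Art (median -0.92), while 3 rose and 1 fell in Rag_SPIC_tet_DOX_shBCLAF1 against Rag_SPIC_tet_DOX (median 0.15). In Art cells the complement receptor gene Cr2 rose by 2.09 (SE 0.37), and Vpreb1, a surrogate light chain gene, fell by 1.64 (SE 0.44) and Cd79b fell by 1.49 (SE 0.32). In Rag cells the other surrogate light chain gene Vpreb2 rose by 1.13 (SE 0.10) and Cr2 by 1.03 (SE 0.35). By the interaction term, 7 of the 12 were lower in their effect in Art cells and 0 higher, where 17% of all genes were lower and 14.3% higher. Among them were the inhibitory coreceptor gene Cd22 (-1.49, SE 0.30, adjusted p = 0.00424) and Vpreb1 (-1.53, SE 0.51, adjusted p = 0.0417). The difference for Vpreb1 was -0.99 without Art replicate 3, and its call was lost when any single one was left out of Art_shBCLAF1 replicates 1 to 3, Rag_SPIC_tet_DOX_shBCLAF1 replicates 1 to 3 or Rag_SPIC_tet_DOX replicate 1 or 3 (adjusted p = 0.073 to 0.0915). Of 7 other SRC, SYK, TEC and ABL kinases, 1 rose and 5 fell in Art cells (median -1.13), while 0 rose and 2 fell in Rag cells (median -0.53). The kinase gene that rose in Art cells was Fgr (1.41, SE 0.36), at a low level of 0.95 log2 CPM in Art_shBCLAF1 against -0.46 in Art. In Rag cells Tec fell by 0.53 (SE 0.09) and Abl1 by 0.94 (SE 0.15), and reads of Abl1 may include those of the v-Abl oncogene derived from it.

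Of 24 other adaptors and exchange factors, 1 rose and 9 fell in Art cells (median -0.17), while 3 rose and 8 fell in Rag cells (median -0.27). Themis2, an adaptor of B cells, rose by 1.30 (SE 0.22) in Art cells, and Lat, the T-cell membrane adaptor, fell by 2.03 (SE 0.31) and the exchange factor gene Vav3 by 2.04 (SE 0.60). In Rag cells Lat rose by 0.79 (SE 0.17) and Grap2, which encodes the adaptor GADS, by 1.13 (SE 0.18), and Gab2 fell by 1.10 (SE 0.12) and Stap1 by 0.83 (SE 0.29). The effect on Lat differed between the lines by -2.81 (SE 0.37, adjusted p = 0.000347), as that on Lck did. Lat was at 4.40, 4.35 and 5.37 log2 CPM in Art replicates 1, 2 and 3, the last being the shallow library, which enlarges its fall in Art cells. Of 16 other PI3K and phospholipase C genes, 1 rose and 6 fell in Art cells (median -0.50), while 1 rose and 7 fell in Rag cells (median -0.10). Pik3r6, a regulatory subunit of PI3K gamma, rose by 1.51 (SE 0.23) in Art cells, and Plcb2 fell by 1.85 (SE 0.12) and Plcg1 by 1.84 (SE 0.11). In Rag cells Plcg1 fell by 0.74 (SE 0.09), and the low genes Plcd1 and Plcd3 were at 1.42 (SE 0.30) and -1.73 (SE 0.28).

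Of 26 inhibitory receptors, phosphatases and ligases, 3 rose and 10 fell in Art cells (median -0.24), while 5 rose and 11 fell in Rag cells (median -0.13). Ptpn6, which encodes the phosphatase SHP-1, was at 7.94 ± 0.13 log2 CPM in Art_shBCLAF1 against 5.72 ± 0.34 in Art and rose by 2.22 (SE 0.19, adjusted p = 0.000385). Ubash3a, a suppressor of T-cell receptor signals, had 2 to 5 reads per library in Art_shBCLAF1 against 121 to 424 in Art, and 2 to 10 in Rag_SPIC_tet_DOX_shBCLAF1 against 137 to 201 in Rag_SPIC_tet_DOX, and fell in both. Ptpn22, a phosphatase acting on SRC- and SYK-family kinases, fell by 2.24 (SE 0.47) in Art cells and by 1.19 (SE 0.12) in Rag cells, while Ubash3b rose by 0.58 (SE 0.12) in Art cells. In Rag cells Siglecg, an inhibitory receptor gene, rose by 1.25 (SE 0.08) and Csk, the kinase that holds SRC-family kinases inactive, by 0.64 (SE 0.07). Of 28 genes of the calcium, protein kinase C and NFAT or NF-kB arm, 3 rose and 9 fell in Art cells (median -0.17), while 8 rose and 4 fell in Rag cells (median 0.10). Rasgrp1, a Ras exchange factor that binds the lipid product of Plcg2, rose by 2.74 (SE 0.40) in Art cells and by 1.98 (SE 0.47) in Rag cells. Rasgrp1 was at 2.97, 2.86 and 1.51 log2 CPM in Art replicates 1, 2 and 3, the last resting on 16 reads in the shallow library, which enlarges the rise. Prkca rose by 1.99 (SE 0.19) and Prkcd (-1.59, SE 0.16) and Prkd2 (-1.54, SE 0.24) fell in Art cells, while in Rag cells Prkcq rose by 1.41 (SE 0.25) and Prkce (-0.48, SE 0.09) and Bcl10 (-0.46, SE 0.06) fell. Every gene called here passed at a limma adjusted p below 0.05 over all 11551 genes, and 25% of all genes rose and 24.1% fell in Art cells, 28.5% and 25.1% in Rag cells.

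Without Art replicate 3 the lists in Art_shBCLAF1 against Art had 2 receptor chains higher and 8 lower, 4 adaptors higher and 15 lower, 2 PI3K and phospholipase genes higher and 11 lower, 8 inhibitory genes higher and 15 lower, and 9 genes of the calcium arm higher and 13 lower, where 80.1% of all genes passed. Without Rag_SPIC_tet_DOX replicate 1, 10 inhibitory genes were higher and 11 lower and 3 PI3K and phospholipase genes higher and 7 lower in Rag_SPIC_tet_DOX_shBCLAF1 against Rag_SPIC_tet_DOX (65.6% of all genes called). Without replicate 2, 12 genes of the calcium arm were higher and 5 lower (56.2% of all genes called). Of the genes named in Art cells, the calls of Vpreb1 and Vav3 were lost when any single Art_shBCLAF1 library was left out (adjusted p = 0.0701 to 0.0936), that of Vav3 also without Art replicate 1 or 2 (0.085 and 0.0811), that of Fgr without Art_shBCLAF1 replicate 1 or 3 or Art replicate 1 (0.0551 to 0.0748) and that of Ubash3b without Art_shBCLAF1 replicate 1 or 3 (0.0513 and 0.0597). Of those named in Rag cells, the calls of Cr2 and Stap1 were lost when any single Rag_SPIC_tet_DOX_shBCLAF1 library, or Rag_SPIC_tet_DOX replicate 3, was left out (adjusted p = 0.0972 to 0.129), and that of Rasgrp1 without Rag_SPIC_tet_DOX_shBCLAF1 replicate 3 (0.051). Without Rag_SPIC_tet_DOX replicate 1 Stap1 was at -0.53 (adjusted p = 0.0524), and without replicate 2 Cr2 was at 0.66 (adjusted p = 0.0293).

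In Rag_SPIC_tet_DOX against Rag_SPIC_tet_NoDOX, where 3.16% of all genes rose and 8.67% fell, no gene of the 6 lists rose. There 2 receptor chains, among them Cd72 (-0.53, SE 0.14), 2 phospholipases, 5 inhibitory genes led by the Fc receptor gene Fcgr2b (-0.83, SE 0.09), and 4 genes of the calcium arm fell. In Art against Rag_SPIC_tet_NoDOX, where 2.58% of all genes rose and 2.56% fell, no list gene fell, and 1 receptor chain, 2 kinases, among them Tec (0.87, SE 0.11), 2 adaptors, Lcp2 (1.28, SE 0.15) and Lat2 (0.91, SE 0.15), 3 inhibitory genes and 1 of the calcium arm, Prkch (1.21, SE 0.12), rose. Without Rag_SPIC_tet_DOX replicate 2, 6 inhibitory genes were higher and 10 lower, 8 genes of the calcium arm higher and 8 lower, and 7 receptor chains lower, beside 39.6% of all genes called. Without Art replicate 3, 12 inhibitory genes were higher and 4 lower, and 11 of the calcium arm higher and 2 lower, beside 47.4% of all genes called. The calls of Tec, Lcp2, Lat2 and Prkch were lost when Art replicate 1 or 2 or any single Rag_SPIC_tet_NoDOX library was left out (adjusted p = 0.0608 to 0.156). Those of Cd72 and Fcgr2b were lost without Rag_SPIC_tet_DOX replicate 3 or Rag_SPIC_tet_NoDOX replicate 1 or 3 (adjusted p = 0.0556 to 0.182), and that of Cd72 also without Rag_SPIC_tet_NoDOX replicate 2 (adjusted p = 0.113).

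The genes whose profiles across the 15 libraries were most like those of a member were sought among 8946 genes with a mean of at least 3 log2 CPM, by the root-mean-square difference of profiles centred on their means. For Lck these were Sytl1 (0.30 log2 units), Adgre5 (0.32) and Ankrd6 (0.34). For Syk they were Map3k3 (0.07), Heca (0.08) and Ulk2 (0.09), and for Blnk Ypel2 (0.12), Snx30 (0.12) and Irf2bp2 (0.12). The distance is not scaled to the range of a gene's group means, which was 3.86 log2 units for Lck, 1.0 for Blnk and 0.72 for Syk. Distances can therefore not be compared between members, and the profiles share libraries, depth and scaling.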

How the data were processed

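RNA was measured in 15 libraries, 3 in each of 5 groups taken from the labels. The submitters' processing notes name mm9, Subread, featureCounts 1.4.5, edgeR and limma, with no roles. The authors deposited 4 tables of log2 CPM for all 15 libraries, with their own log2 fold changes and p-values in columns named as in limma output, per the file headers, and each table lists only genes at their adjusted p below 0.05 (highest 0.0499). The union of 11551 genes was used, with 152 duplicate rows merged and no difference between tables. One column name differs by a character from the label of Art replicate 3 and was matched on that basis. The deposited log2 values return to whole read counts within 0.05 reads in 100% of values below 1000 reads, with 0.5 added to each count. Depth was 5.81 to 27.1 M reads per library, which leaves 86 reads or more for every member in every library, and no gene was filtered on its level.

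Each comparison was fitted with limma 3.58.1 in R 4.3.3 to the log2 CPM of its own groups, with a mean-variance trend, two-sided, and Benjamini-Hochberg adjustment over all 11551 genes, and a gene changed at an adjusted p below 0.05. The interaction used 12 libraries. The 11551 genes had been selected by the authors' calls in these same libraries. The adjusted p-values may therefore be too small, and they do not hold the false discovery rate at the stated threshold. All members were named, and from each pathway list up to 2 changed genes with the largest rise and up to 2 with the largest fall per comparison. A few list genes that this rule selects are not reported here. The fits were tested on simulated data. The members and lists were chosen with earlier results of these data known. Alternatives were a fit over 15 libraries, array weights, a replicate block, median centring, a minimum level, log2(CPM + 1), voom weights on the recovered reads, and each library left out. Promoters are from RefSeq, exon lengths and gene coordinates from GENCODE M21, both on GRCm38, and no coordinate was converted.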

Additional observations from a re-analysis of the deposited data

Results flagged for a closer look

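The shBCLAF1 label had different effects in the 2 lines for 3 members, by an interaction term in limma. For Lck the effect in Art cells minus that in Rag_SPIC_tet_DOX cells was -3.36 log2 units (SE 0.14, adjusted p = 6.92e-07), with -3.86 in Art cells and -0.50 in Rag_SPIC_tet_DOX cells, lower in 3 of 3 libraries in each line. For Blk it was -1.67 (SE 0.17, adjusted p = 0.000102), with 1.01 in Art cells and 2.68 in Rag_SPIC_tet_DOX cells. For Pik3cd it was -0.59 (SE 0.21, adjusted p = 0.0478), with 0.62 in Art cells and 1.21 in Rag_SPIC_tet_DOX cells. The Pik3cd call was lost in 8 of the 12 fits that left out a library (adjusted p = 0.0767 to 0.1) and with the replicate block (adjusted p = 0.0531). Spic was higher under the label in both lines, at 4.54 log2 CPM in Art_shBCLAF1 against 0.44 in Art and at 7.46 in Rag_SPIC_tet_DOX_shBCLAF1 against 4.21 in Rag_SPIC_tet_DOX. The Art labels name no construct, so line, construct and doxycycline cannot be told apart. Art replicate 3 is the shallowest library. Its Lck value lies between those of the other Art libraries, and the Lck and Blk differences passed in every fit that left out a library.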

How the results depend on the processing

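Of 850 refitted member values over all alternatives, 739 kept their direction and side of the threshold, 52 fell below the threshold, 31 passed it newly and 28 changed sign, the last all for members that had not passed. The cause of the changes below was not tested, except that leaving out a library leaves fewer samples. Array weights called 7 members and 6547 genes in Art against Rag_SPIC_tet_NoDOX, 8 and 8589 in Rag_SPIC_tet_DOX against Rag_SPIC_tet_NoDOX, 7 and 9159 for the interaction, 10078 genes in Rag_SPIC_tet_DOX_shBCLAF1 against Rag_SPIC_tet_DOX and 9839 in Art_shBCLAF1 against Art. The fit over 15 libraries called 1957 genes in Art against Rag_SPIC_tet_NoDOX, 6105 in Rag_SPIC_tet_DOX_shBCLAF1 against Rag_SPIC_tet_NoDOX and 5 members and 4335 genes for the interaction, and centring left 1 member and 522 genes in Art against Rag_SPIC_tet_NoDOX. Same-numbered libraries of compared groups deviated from their group means with correlations of -0.234 to 0.200, not every library correlated best with its own number, and the number was not taken as a pairing. With the replicate block 0 members and 0 genes passed in Art against Rag_SPIC_tet_NoDOX (limma, 2505 genes at an unadjusted p below 0.05 in the fit without the block), and 1 member, Zap70, and 150 genes in Rag_SPIC_tet_DOX against Rag_SPIC_tet_NoDOX. The block also lost the call of Pik3cd in the interaction (adjusted p = 0.0531) and changed no other member's call.

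Leaving out each library in turn gave 0 to 4 members and 0 to 5473 genes in Art against Rag_SPIC_tet_NoDOX, 0 to 5 and 12 to 4569 in Rag_SPIC_tet_DOX against Rag_SPIC_tet_NoDOX, 5 to 8 and 3945 to 7576 in Rag_SPIC_tet_DOX_shBCLAF1 against Rag_SPIC_tet_DOX, 6 to 8 and 3740 to 9252 in Art_shBCLAF1 against Art, 9 to 10 and 8717 to 9226 in Rag_SPIC_tet_DOX_shBCLAF1 against Rag_SPIC_tet_NoDOX, and 2 to 5 and 2674 to 7458 for the interaction. The last value leaves out both Art replicate 3 and Rag_SPIC_tet_DOX replicate 2, an alternative chosen after seeing the data.

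Signs changed as follows, in log2 units. Under array weights Zap70 was at -0.0068 in Art against Rag_SPIC_tet_NoDOX and 0.27 in Art_shBCLAF1 against Art, Syk at 0.054 in Rag_SPIC_tet_DOX against Rag_SPIC_tet_NoDOX, Lyn at -0.025 in Rag_SPIC_tet_DOX_shBCLAF1 against Rag_SPIC_tet_DOX, and Fyn at -0.20 and Plcg2 at 0.12 in the interaction. Under centring Lyn was at -0.077 in Rag_SPIC_tet_DOX_shBCLAF1 against Rag_SPIC_tet_DOX and -0.12 in Art_shBCLAF1 against Art, and Fyn was at -0.089, Lyn at -0.046 and Syk at -0.075 in the interaction. With libraries left out, Lyn ran between -0.0035 and 0.057 in Art against Rag_SPIC_tet_NoDOX. Pik3cd ran between -0.038 and 0.20 and Syk between -0.15 and 0.15 in Rag_SPIC_tet_DOX against Rag_SPIC_tet_NoDOX, and Lyn between -0.022 and 0.048 in Rag_SPIC_tet_DOX_shBCLAF1 against Rag_SPIC_tet_DOX. Fyn ran between -0.26 and 0.011 and Zap70 between -0.49 and 0.23 in Art_shBCLAF1 against Art, and in the interaction Fyn between -0.18 and 0.14, Plcg2 between -0.46 and 0.41 and Syk between -0.090 and 0.21.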

Other observations

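Among genes of the 6 pathway lists, Rag_SPIC_tet_DOX_shBCLAF1 against Rag_SPIC_tet_NoDOX called the most, as it did over all genes (79.7% called). Ptpn6, the gene of the phosphatase SHP-1, was at 7.70 ± 0.02 log2 CPM against 5.50 ± 0.10 (SD, n = 3 each) and rose by 2.20 (SE 0.05, limma adjusted p = 8.06e-16). Rasgrp1 rose by 2.38 (SE 0.09), Pik3r6 by 1.93 (SE 0.08), the lipid phosphatase gene Inpp4b by 1.77 (SE 0.08) and Prkca by 1.24 (SE 0.05). Ptpn22 fell by 1.79 (SE 0.10), Abl1 by 1.37 (SE 0.07), the adaptor genes Grap by 1.08 (SE 0.07) and Gab2 by 1.04 (SE 0.05), and Plcg1 by 0.94 (SE 0.05). Of 12 receptor chains and coreceptors 3 rose and 5 fell, of 7 kinases 2 rose and 3 fell, of 24 adaptors 7 rose and 12 fell, of 16 PI3K and phospholipase genes 3 rose and 10 fell, of 26 inhibitory genes 9 rose and 15 fell, and of 28 genes of the calcium arm 15 rose and 9 fell. In the Rag_SPIC_tet_DOX libraries between these groups, Ptpn6 was at 7.64, 5.24 and 6.72 log2 CPM and Rasgrp1 at 4.15, 2.12 and 3.34 in replicates 1, 2 and 3, in the same order as Plcg2.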
